A study of Mus musculus with 19 samples.

Results

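The 7 genes described here, Dapl1, Lef1, Tcf7, Il7r, Satb1, Igfbp4 and Actn1, are 7 of the 27179 genes in the deposited table of splenocyte RNA from 19 immunized mice. Dapl1 was chosen by its difference between male and female mice in these same samples, and the other 6 are genes of naive T cells that were proposed with results of these mice known. All 7 passed the filter on low values that left 14186 genes for testing. In FCG mice, named for their core genotypes, the Y chromosome of XY animals lacks Sry, the gene that starts testis development, and males carry Sry as a transgene on autosome 3, so that gonads and sex chromosomes are inherited apart. The colony came from males with the Tg(Sry)2Ei transgene and the dl1Rlb deletion on a C57BL/6 background, bred to C57BL/6J females, and the groups were 5 mice with ovaries and XX chromosomes (XXF), 4 with ovaries and XY (XYF), 5 with testes and XX (XXM) and 5 with testes and XY (XYM). Every mouse received heat-killed Streptococcus pneumoniae (HKSP) by injection into the peritoneal cavity, spleens were taken 1 week later, and no unimmunized mouse was sequenced. How old the mice were is not stated. The comparisons ask how the level of each gene differs with gonadal sex and with sex chromosomes, and how each gene stands against Cd3e, a chain of the T cell receptor complex present in all T cells.

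Naive T cells leave the thymus, circulate through spleen and lymph nodes, and keep a quiet state until they meet antigen. Tcf7 and Lef1 encode related DNA-binding factors (TCF1 and LEF1) that set T cell identity in the thymus and stay high in naive cells, Il7r encodes the receptor chain through which interleukin 7 keeps naive T cells alive, and Satb1 encodes a chromatin organizer of thymocytes and T cells. Dapl1 encodes death associated protein-like 1, Igfbp4 a secreted binding protein of insulin-like growth factors, and Actn1 the actin cross-linker alpha-actinin 1, and naive T cells transcribe all of them, although Actn1 is also abundant in platelets and other cells.

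Levels are given as RPKM, reads scaled to the length of the gene and the size of the library, which can be set side by side between genes. Differences are on the log2(RPKM + 1) scale of the deposited values. Library sizes lay between 11263753 and 19962022 reads, with medians of 16703648 in XXF, 17579367.5 in XYF, 16156083 in XXM and 19061692 in XYM. No mouse went against its label in Xist, Sry or Y-linked reads. The sequencing indices run along the groups, with 1 to 5 in XXM, 6 to 10 in XYM, 11 to 15 in XXF and 16 to 19 in XYF, and a further word of unstated meaning stands in the titles of XXM libraries and of no other group, so any effect of processing and the group cannot be told apart. The cells are a spleen suspension after lysis of red cells, and all 19 pan T cell genes, all 11 B cell markers and all 10 myeloid markers in the lists used were measured above the filter.

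The libraries XYF F9 and XYM 9 stand apart from the others. The 10 myeloid markers, of which S100a9 was the most abundant and none was at 0, summed to 45870 RPKM in XYF F9 and 46550 RPKM in XYM 9. In the other females the sums were 5187, 4189, 5383, 5980 and 4987 RPKM in XXF and 11770, 16320 and 7443 RPKM in XYF. In the other males they were 6392, 5864, 6414, 4970 and 4297 RPKM in XXM and 3196, 8346, 4045 and 3469 RPKM in XYM. Every XYF mouse was thus above every XXF mouse in myeloid markers, so these also move with the XXF minus XYF comparison as a whole. The 5 proliferation markers summed to 358.5 RPKM in XYF F9 and 268.1 RPKM in XYM 9, the highest of each gonadal sex, and were also high in XYF F6 (278.7 RPKM) and XYF F8 (162.9 RPKM), beside 74.99 RPKM in XYF F7, 74.23 to 114.7 RPKM in XXF and 44.6 to 107.2 RPKM in the other males. The part of these cells in the results below was not tested, and XX minus XY values of the 7 genes printed below that move by over 1.5 times without these mice are given with and without them. Leaving out both together was chosen after seeing the data.

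Promoter sequences, from 250 bases before to 50 bases after a start, were read for all 7 genes at 15 starts, and those of Dapl1, Lef1, Tcf7 and Il7r are printed because the levels of these 4 genes set the patterns described below. The sequences are from RefSeq, build GRCm38.p6, 5′ to 3′ on the strand of the gene. Capitals mark matches, on either strand, to 6 motifs: CTTTGA (TCF and LEF factors), TGTGGT (RUNX), ACAGGAAG (ETS), GTAAACA (FOXO), AGAACA (androgen and glucocorticoid receptors) and AGGTCA (oestrogen and other nuclear receptors).
Dapl1, chr2:59484403-59484702, plus strand: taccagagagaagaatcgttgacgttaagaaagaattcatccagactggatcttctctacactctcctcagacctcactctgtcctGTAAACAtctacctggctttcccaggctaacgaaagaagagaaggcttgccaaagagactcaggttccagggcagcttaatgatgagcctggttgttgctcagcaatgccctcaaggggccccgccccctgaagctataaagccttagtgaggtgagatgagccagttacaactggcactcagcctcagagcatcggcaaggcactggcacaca
Lef1, a start within the gene, chr3:131156044-131156343, plus strand: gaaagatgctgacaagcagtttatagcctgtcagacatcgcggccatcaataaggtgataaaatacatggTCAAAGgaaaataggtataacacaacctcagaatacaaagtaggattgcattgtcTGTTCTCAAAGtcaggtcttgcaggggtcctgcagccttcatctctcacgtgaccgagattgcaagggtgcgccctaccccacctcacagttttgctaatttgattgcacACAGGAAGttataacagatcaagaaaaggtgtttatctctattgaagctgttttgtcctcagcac
Tcf7, the downstream of its 2 starts, chr11:52282546-52282845, minus strand: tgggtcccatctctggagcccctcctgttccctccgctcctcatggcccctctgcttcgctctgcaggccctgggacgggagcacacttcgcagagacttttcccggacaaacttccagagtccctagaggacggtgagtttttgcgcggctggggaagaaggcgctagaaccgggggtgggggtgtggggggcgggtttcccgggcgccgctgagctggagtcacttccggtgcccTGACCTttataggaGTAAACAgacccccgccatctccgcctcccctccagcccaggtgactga
Il7r, chr15:9529827-9530126, minus strand: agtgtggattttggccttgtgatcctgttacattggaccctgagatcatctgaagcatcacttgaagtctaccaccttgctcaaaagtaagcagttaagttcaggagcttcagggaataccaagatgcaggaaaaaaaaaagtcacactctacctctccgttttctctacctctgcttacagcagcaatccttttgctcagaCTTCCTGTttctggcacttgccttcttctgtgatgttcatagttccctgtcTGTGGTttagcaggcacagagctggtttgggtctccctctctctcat
The Dapl1 promoter held a single match, GTAAACA with its first base at -164 from the start site. The Lef1 sequence held 2 matches to CTTTGA on its opposite strand, at -180 and -120, an AGAACA match at -125 that overlaps the latter by 1 base, and ACAGGAAG at -15. The Tcf7 sequence held AGGTCA on the opposite strand at -13 and GTAAACA at 2, and the Il7r sequence held ACAGGAAG on the opposite strand at -48 and TGTGGT at 4. Of 32851 mouse promoters of this length, 16% held CTTTGA, 16.8% TGTGGT, 3.58% ACAGGAAG, 3.65% GTAAACA, 19% AGAACA and 16.3% AGGTCA. The printed Lef1 start is the 1 with most matches of 4, of which 2 at the beginning of the gene held 0 and another held 1 (AGAACA), and the upstream Tcf7 start held 0. Of 5 Satb1 starts 1 held a match (AGGTCA), and the single start of Igfbp4 and that of Actn1 held none. These matches describe letters and were not tied to binding by any data here.

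Dapl1 (Entrez 76747, chr2:59484653-59505020) was high in every female and low in every male. RPKM was 63.7, 95.7, 86.1, 75.3 and 82.7 in the 5 XXF mice and 83.0, 121.5, 63.3 and 25.5 in the 4 XYF mice. It was 8.50, 4.12, 3.56, 4.39 and 2.60 in the 5 XXM mice and 5.71, 2.10, 7.10, 4.62 and 2.93 in the 5 XYM mice. The lowest female was XYF F9, the highest male was XXM 2, and the females did not overlap the males. With XYF F9 left out, the lowest female stood at 63.3 RPKM. Recovered reads on the gene were 278 to 1197 in females and 24 to 79 in males, so the male values rest on few but not single reads. Mean RPKM was 77.4 (SD 26.2, n = 9) in females and 4.56 (SD 2.03, n = 10) in males, 17 times higher in females. The fold was 17.4 between XXF and XXM and 16.3 between XYF and XYM. The log2 difference, males minus females, was -3.78 (SE 0.25), and -3.95 (SE 0.21) without XYF F9 and XYM 9. It was the lowest of the 14186 genes tested, and since Dapl1 was chosen on this difference it is given without a test. Fewer cells of a type and less RNA per cell cannot be told apart in such a mixture of cells.

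**Figure D1:**
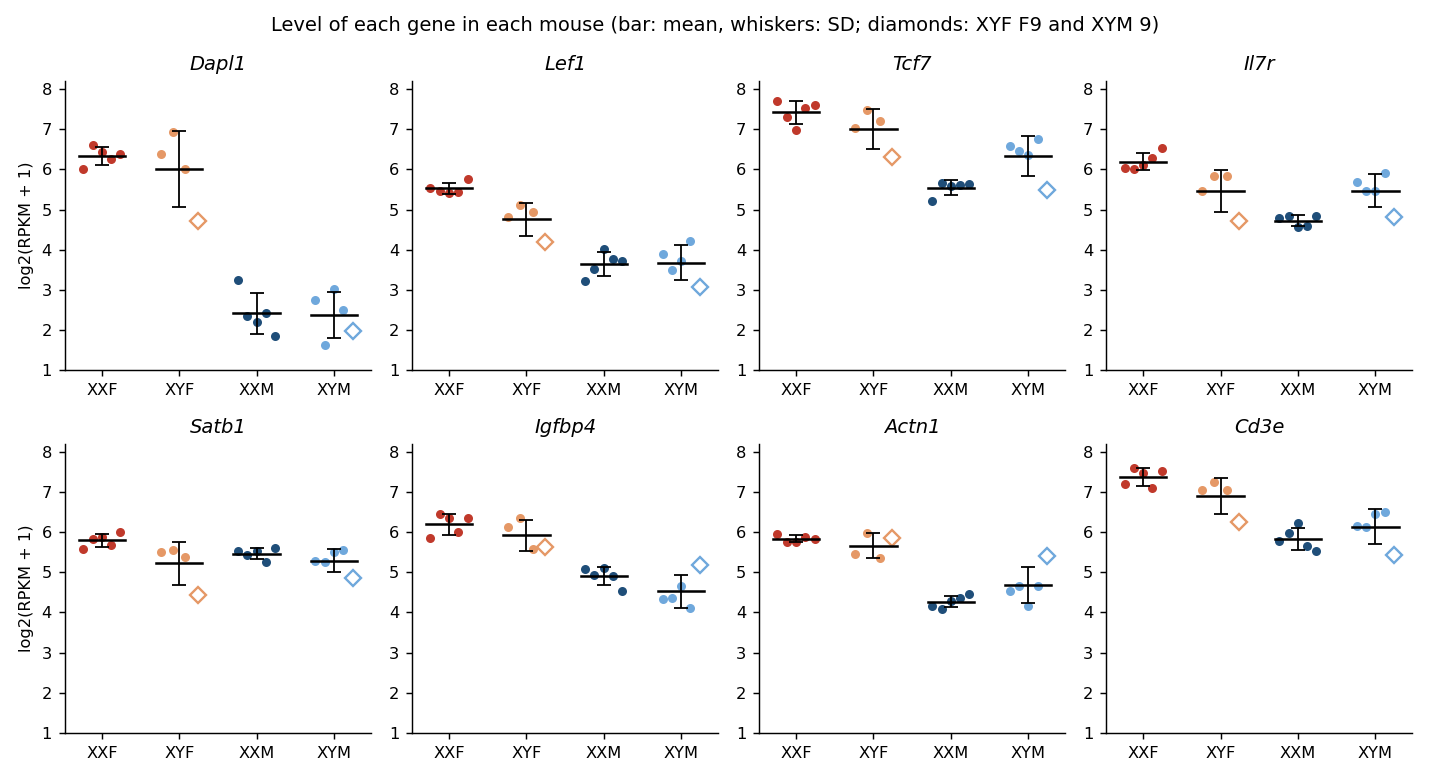
Level of the 7 genes and of Cd3e in each mouse, as log2(RPKM + 1), by group, with the group mean and SD; open diamonds are XYF F9 and XYM 9. Dapl1 separates females (4.73 to 6.94) from males (1.63 to 3.25), whereas Satb1 overlaps between females (4.43 to 6.0) and males (4.84 to 5.6).

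Within a gonadal sex, Dapl1 did not follow the sex chromosomes. The XXF and XYF mice overlapped, as did the XXM and XYM mice, and the order of group means on the log2 scale was XXF 6.34 (SD 0.22), XYF 6.02 (SD 0.94), XXM 2.42 (SD 0.52) and XYM 2.37 (SD 0.57). Only the step from XYF to XXM exceeded the spread. In the limma fit the XX minus XY difference was 0.32 (SE 0.36, adjusted p = 0.635) in females and 0.04 (SE 0.34, adjusted p = 0.946) in males. Without XYF F9 and XYM 9 both differences turned negative, -0.11 (adjusted p = 0.903) and -0.06 (adjusted p = 0.903). Subtracting the value in males from that in females gave 0.28 (SE 0.50, adjusted p = 0.756), and -0.05 (adjusted p = 0.947) without the pair of mice.

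The 10 genes whose log2 levels followed Dapl1 most closely over the 19 mice were Bambi-ps1 (Pearson r 0.977), Slc28a2b (0.974), Cnga1, Ggt1, Vipr1, Trbv12-1, Ppic, Lypd6b, Slc6a19 and Tdrp (0.943). Vipr1 encodes a receptor of vasoactive intestinal peptide and Trbv12-1 is a variable segment of the T cell receptor beta chain. Females and males did not overlap in 9 of these 10 genes, as likeness over all mice follows the contrast that chose Dapl1. The deviations of each mouse from its group mean, which leave out that contrast, gave another list, led by Klk8 (r 0.91), Tdrp (0.909), Zfp954, Gm19585 and Dnajc15, and followed by Gm14279, Ddx18, Zcchc10, Tnfaip1 and Tigd2 (0.88). Tdrp stood on both lists. Among the other 6 genes described here, Igfbp4 (r 0.912) and Lef1 (0.907) were most like Dapl1 over the 19 mice, and Satb1 (0.704) and Il7r (0.573) by deviations. Without XYF F9 the last 2 were 0.408 and 0.258, and without XYF F9 and XYM 9 0.329 and 0.106, so they rest largely on that library. Igfbp4 was at 0.415 with all mice, 0.657 without XYM 9 and 0.624 without the pair, where it led the 6 genes, so their order depends on these libraries. By levels over the mice, Actn1 rose from r 0.838 to 0.925 without the pair, above Lef1 (0.911) and below Igfbp4 (0.933). For the 10 genes of the second list r without XYF F9 lay between 0.781 (Tigd2) and 0.855 (Klk8). These correlations are descriptions over mice of 4 groups.

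The large difference in Dapl1 was not shared by the genes around it on chromosome 2. Of the 10 tested genes on each side, limma called 1 higher in males, Baz2b (0.61, SE 0.08, adjusted p = 6.35e-05), and 2 lower, Tanc1 (-0.61, SE 0.07, adjusted p = 1.96e-05) and Cd302 (-0.65, SE 0.14, adjusted p = 0.00269). Over all genes tested 1.96% were called higher in males and 5.36% lower. The call of Baz2b was lost without XXM 2 (0.58) or XYM 12 (0.58), that of Cd302 without XYF F7 (-0.52), and that of Tanc1 with quantile normalization (-0.58), in each case because the difference came under 1.5 times. The median over the 20 neighbours was 0.02, beside 0.02 over all genes tested. The nearest tested genes, Pkp4 and Gm13552, differed by -0.44 (adjusted p = 0.00561) and -0.27 (adjusted p = 0.123), below the size threshold.

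**Figure D2:**
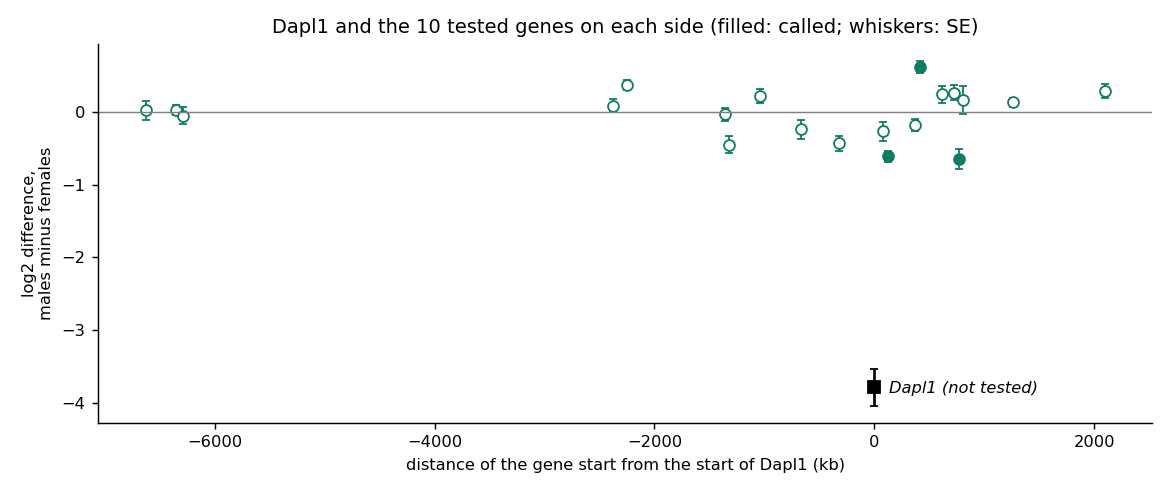
Log2 difference, males minus females, of Dapl1 and the 10 tested genes on each side, against the distance between gene starts in kb; whiskers are SE and filled circles are called genes. Dapl1 lies at -3.78 while its neighbours lie between -0.65 and 0.61.

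Lef1 (Entrez 16842, chr3:131110297-131224357), on the autosome that also carries the Sry transgene in these males, followed gonadal sex in size and, in females, the sex chromosomes. RPKM was 45.7, 43.5, 41.9, 42.0 and 53.0 in XXF mice and 27.1, 33.6, 29.5 and 17.1 in XYF mice. It was 8.35, 10.5, 15.2, 12.7 and 12.1 in XXM mice and 13.9, 10.2, 12.2, 17.7 and 7.40 in XYM mice. Every XXF mouse stood above every XYF mouse, and the XYF mouse F9 fell among the males. How many of all genes separate XXF from XYF mice in this way was not counted. In the limma comparison of these groups 18.7% of all genes had an unadjusted p under 0.05. The range of XXM mice (8.35 to 15.2 RPKM) lay within that of XYM mice (7.40 to 17.7 RPKM). On the log2 scale the group means were XXF 5.53 (SD 0.14), XYF 4.76 (SD 0.40), XYM 3.68 (SD 0.43) and XXM 3.65 (SD 0.30), and the last of these steps did not exceed the spread. Between females, limma called Lef1 higher with XX than with XY (log2 difference 0.77, SE 0.21, adjusted p = 0.0913, higher in 5 of 5 XXF mice). It was 0.57 (SE 0.17, adjusted p = 0.163), and not called, without XYF F9 and XYM 9. The call was also lost when any 1 of 13 mice was left out (XXF F1, F2, F3, F4 or F5, XYF F6 or F9, XXM 5, 7 or 8, or XYM 12, 13 or 15), with differences between 0.57 (without XYF F9) and 0.88, and adjusted p between 0.0406 and 0.374, over all mice left out. Over the other alternatives the adjusted p lay between 0.0721 and 0.163. In males the difference was -0.03 (SE 0.20, adjusted p = 0.939), and -0.18 (adjusted p = 0.416) without the pair. Males minus females was -1.48 (SE 0.14), as a description.

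Tcf7 (Entrez 21414, chr11:52246527-52283383) was the most abundant of the 7 genes and, among males, lower in XXM mice. RPKM was 208.7, 156.0, 124.7, 182.2 and 192.0 in XXF mice and 129.6, 175.9, 147.6 and 78.8 in XYF mice. It was 36.3, 49.6, 47.5, 48.0 and 49.1 in XXM mice and 95.1, 86.9, 80.4, 107.8 and 43.9 in XYM mice. The 5 XXM mice lay below 4 of the 5 XYM mice. Of the XXM mice 4 lay close together (47.5 to 49.6 RPKM) and XXM 2 stood below them, and XYM 9 fell between XXM 2 and the other 4. Tcf7 was called lower in XXM than in XYM mice (log2 difference -0.78, SE 0.23, adjusted p = 0.0798). Leaving out XYF F9 and XYM 9 gave -0.99 (SE 0.15, adjusted p = 0.00239). The call was lost when XXF F5, XXM 2, 5 or 6, or XYM 12, 13 or 16 was left out, with differences from -0.99 to -0.67 (without XYM 16) and adjusted p from 0.0175 to 0.205 over all mice left out, and adjusted p from 0.00183 to 0.106 over the other alternatives. In females the difference had the opposite sign, 0.41 (SE 0.24, adjusted p = 0.354), or 0.18 (adjusted p = 0.651) without the pair of mice, and the groups overlapped. Males minus females was -1.27 (SE 0.16), as a description, with a mean RPKM 3.75 times higher in XXF than in XXM and 1.61 times higher in XYF than in XYM. The gene overlaps Skp1 (chr11:52230522-52246858) at its end, and whether reads in the overlap were counted by strand is not stated.

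Il7r (Entrez 16197, chr15:9506159-9529941) differed between XX and XY mice in opposite directions in females and males, although the test of that contrast between the sexes missed the threshold (interaction 1.46, SE 0.30, adjusted p = 0.104) and passed it when XXF F3, XYF F7, XYF F8, XYM 15 or XYM 9 was left out (up to 1.63, adjusted p = 0.012, without XYM 9). RPKM was 64.2, 63.8, 67.6, 77.2 and 91.4 in XXF mice and 43.4, 56.5, 55.8 and 25.4 in XYF mice. It was 26.9, 27.6, 22.7, 23.2 and 27.5 in XXM mice and 50.2, 43.3, 43.0, 59.0 and 27.0 in XYM mice. All XXF mice were above all XYF mice, a separation that was not counted over all genes. Of the 5 XYM mice 4 were above all XXM mice, and XYM 9 lay among the XXM mice. Mean RPKM was nearly the same in XYF (45.3, SD 14.6) and XYM (44.5, SD 11.7), but 2.85 times higher in XXF (72.9, SD 11.7) than in XXM (25.6, SD 2.42). Il7r was called lower in XXM than in XYM mice (log2 difference -0.74, SE 0.20, adjusted p = 0.0732), and at -0.90 (SE 0.13, adjusted p = 0.00134) without XYF F9 and XYM 9. The call was lost when XXM 2, 5 or 6, or XYM 12, 13 or 16 was left out, with differences from -0.90 to -0.63 (without XYM 16) and adjusted p from 0.0232 to 0.175 over all mice left out, and adjusted p from 0.00134 to 0.101 over the other alternatives. In females the difference was 0.73 (SE 0.22, adjusted p = 0.114), not called. It was called without XYF F7 (0.85, adjusted p = 0.0456), XYF F8 (0.85, adjusted p = 0.0666) or XYM 9 (0.73, adjusted p = 0.0536), and was 0.48 and not called without XYF F9 (adjusted p = 0.432) or the pair of mice (adjusted p = 0.152). Males minus females was -0.73 (SE 0.15) over both genotypes, made up of -1.47 (SE 0.20) between XX mice and 0.00 (SE 0.22) between XY mice.

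Satb1 (Entrez 20230, chr17:51736187-51833290) differed from the other 6 genes in having about the same level in females and males. RPKM was 46.7, 55.5, 58.2, 50.3 and 63.2 in XXF mice and 44.4, 45.9, 40.8 and 20.6 in XYF mice. It was 45.1, 41.9, 44.9, 37.1 and 47.3 in XXM mice and 37.99, 37.5, 44.1, 46.1 and 27.7 in XYM mice. The lowest XXF mouse stood above the highest XYF mouse, a separation that was not counted over all genes. XYF F9 and XYM 9 were the lowest of their groups, and every neighbouring pair in the order of means, XXF, XXM, XYM and XYF, overlapped. The XX minus XY difference was 0.57 (SE 0.19, adjusted p = 0.145) in females and 0.17 (SE 0.18, adjusted p = 0.53) in males, neither called. Without XYF F9 and XYM 9 these were 0.31 (adjusted p = 0.249) and 0.063 (adjusted p = 0.674). Without XYF F7 Satb1 was called in females (0.69, adjusted p = 0.0589), and over all mice left out its adjusted p there ran from 0.0589 to 0.483. Males minus females was -0.13 (SE 0.13), as a description, and -0.20 without the pair.

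Igfbp4 (Entrez 16010, chr11:99040005-99052655) separated females from males without overlap, as Dapl1 did but with a smaller gap. RPKM was 56.3, 86.2, 81.3, 62.6 and 80.0 in XXF mice and 69.4, 81.3, 46.4 and 48.6 in XYF mice. It was 32.7, 29.7, 33.7, 28.8 and 22.2 in XXM mice and 19.04, 19.6, 24.1, 16.4 and 35.3 in XYM mice. The highest male was XYM 9, and the lowest female, XYF F8, stood 1.32 times above it. Every female lay above every male for these 2 of the 7 genes, beside 0.515% of all genes tested, a direction fixed for Dapl1 by its choice. Males minus females was -1.34 (SE 0.14), as a description. XXM minus XYM was 0.39 (SE 0.20, adjusted p = 0.205), and 0.55 (SE 0.17, adjusted p = 0.0685) without XYF F9 and XYM 9, under the size threshold.

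Actn1 (Entrez 109711, chr12:80167542-80260420) was lower in all males but one than in any female. RPKM was 61.0, 52.7, 53.4, 57.8 and 55.8 in XXF mice and 42.9, 62.2, 39.8 and 57.2 in XYF mice. It was 16.9, 16.1, 18.4, 19.4 and 21.1 in XXM mice and 22.3, 24.3, 16.9, 24.1 and 41.5 in XYM mice. The exception was XYM 9, above the lowest female, and in XYF F9 Actn1 stayed in the upper part of its group while Lef1, Tcf7, Il7r and Satb1 were at their lowest there. Males minus females was -1.27 (SE 0.12), as a description, and XXM minus XYM was -0.42 (SE 0.17, adjusted p = 0.139), or -0.24 (adjusted p = 0.209) without XYF F9 and XYM 9.

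Across the 7 genes, limma called 1 (Lef1), higher with XX, between females, beside 1.38% of all genes tested in either direction. It called 2 lower in XXM than in XYM mice (Tcf7 and Il7r), beside 2.96% in either direction. Over all genes these were 95 higher and 101 lower between females, and 161 higher and 259 lower between males. Averaged over both gonadal sexes limma called 0 of 7 between XX and XY mice, beside 1.72% of all genes. At an unadjusted p under 0.05 the count was 3, beside 22.8% of all genes, and with limma-voom on the recovered reads it was 0. The XX minus XY difference was positive for all 7 genes in females, beside a median of 0.06 over all genes tested. In males it was negative for Lef1, Tcf7, Il7r and Actn1 and positive for Dapl1, Satb1 and Igfbp4. The sign for Dapl1 in females turned without XYF F9 (-0.11). The sign for Lef1 in males turned with quantile normalization (0.02), array weights (0.04) and without XXM 2, XXM 5, XYM 12 or XYM 16 (up to 0.11), and that for Dapl1 in males without XXM 2 (-0.17), XYM 13 (-0.14) or XYM 9 (-0.06). The test of the difference between females and males called 0 of 7 with limma and 0 with limma-voom, beside 0.0846% of all genes, with 4 at an unadjusted p under 0.05, beside 21.0% of all genes. It gave 1.46 for Il7r (SE 0.30, adjusted p = 0.104), 1.19 for Tcf7 (SE 0.33, adjusted p = 0.131) and 0.79 for Lef1 (SE 0.29, adjusted p = 0.156). These 3 were called without XYF F9 and XYM 9, at 1.38 (SE 0.19, adjusted p = 0.00724), 1.17 (SE 0.22, adjusted p = 0.0335) and 0.75 (SE 0.23, adjusted p = 0.0937), in a fit where 782 genes were called rather than 12. With single mice left out all 3 were called without XYM 9 (adjusted p = 0.012, 0.0371 and 0.0548). Il7r and Tcf7 were also called without XXF F3, XYF F8 or XYM 15 (adjusted p from 0.0596 to 0.0849 and from 0.0673 to 0.089), Il7r without XYF F7 (1.59, adjusted p = 0.0906), and Actn1 without XYM 15 (0.72, adjusted p = 0.0963). Genes called over the whole table numbered 1694 without XYM 9, 1197 without XXF F3, 749 without XYF F8 and 808 without XYM 15. Over all mice left out the adjusted p ran from 0.012 to 0.241 for Il7r, from 0.0371 to 0.256 for Tcf7 and from 0.0548 to 0.278 for Lef1. Over all alternatives but single mice the adjusted p ranged from 0.00724 to 0.128 for Il7r, from 0.0225 to 0.176 for Tcf7 and from 0.0708 to 0.211 for Lef1. Cd3e, at 0.77 (SE 0.30, adjusted p = 0.168) with all mice, was also called without the pair, at 0.73 (adjusted p = 0.0893).

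**Figure D3:**
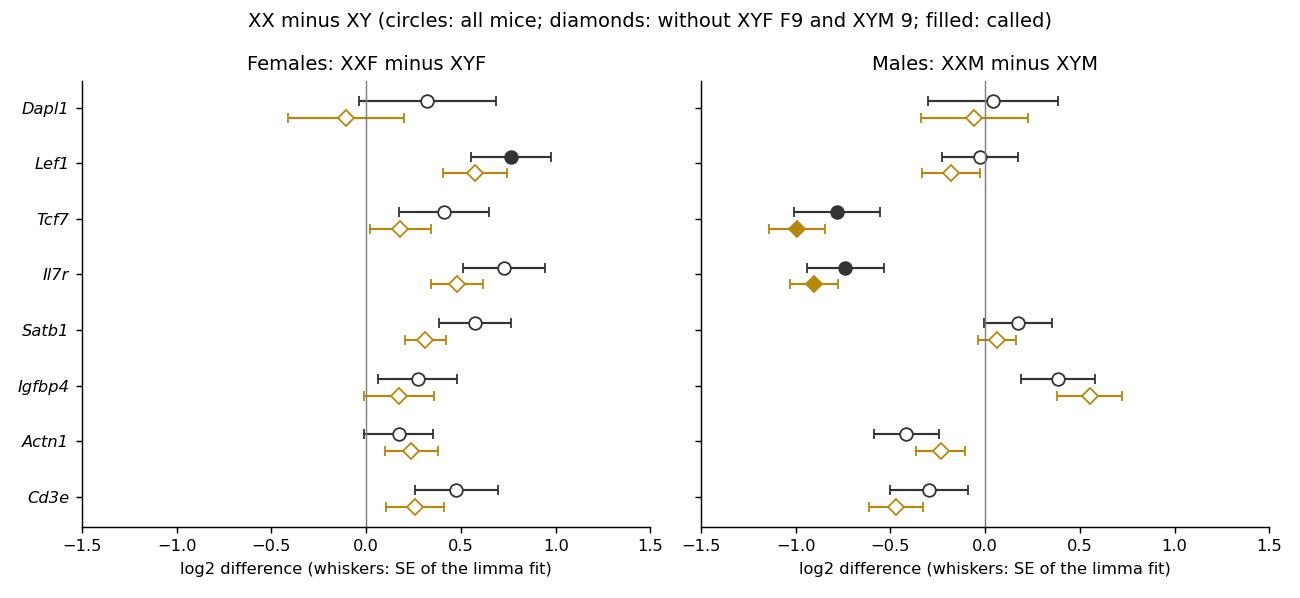
Log2 differences between XX and XY mice in females and in males for the 7 genes and Cd3e, with all mice (circles) and without XYF F9 and XYM 9 (diamonds); whiskers are SE and filled symbols are called. Tcf7 and Il7r lie above 0 in females and below 0 in males, while Dapl1 stays near 0 in males.

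The 7 genes did not deviate together within groups as a single block, and the likeness of their deviations depended on XYF F9 and XYM 9. Deviations from the group means were most alike between Lef1 and Tcf7 (r 0.849), Il7r and Satb1 (0.845) and Tcf7 and Il7r (0.83), and without XYF F9 and XYM 9, left out after seeing the data, these were 0.634, 0.422 and 0.446. Those of Actn1 were opposed to Satb1 (r -0.495) and Il7r (-0.46) with all mice, but stood at -0.0502 and 0.237 without the pair. Without XYM 9 alone the correlations of Actn1 with Lef1 and Tcf7 turned from -0.333 and -0.375 to 0.0911 and 0.173, and that with Igfbp4 from 0.302 to -0.215. Dapl1 had r 0.704 with Satb1, 0.40 with Lef1 and 0.356 with Tcf7, and 0.408, 0.0957 and 0.00622 without XYF F9 alone.

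Relative to Cd3e in the same mouse, the 7 genes fell into different patterns. Cd3e itself (Entrez 12501) fell in males, with a mean of 146.5 RPKM (SD 35.3, n = 9) in females and 64.3 RPKM (SD 16.5, n = 10) in males and a log2 difference of -1.15 (SE 0.15, adjusted p = 7.04e-05, with 8 of 10 males below the lowest female). Dapl1 stood at 43.9, 49.96, 48.6, 55.8 and 45.5 percent of the RPKM of Cd3e in XXF mice and 63.3, 80.8, 48.0 and 34.2 percent in XYF mice. It stood at 15.8, 6.60, 4.84, 8.87 and 5.72 percent in XXM mice and 8.11, 3.04, 8.22, 5.15 and 6.98 percent in XYM mice. Females and males still did not overlap, beside 0.0141% of all genes with every male below every female on this ratio, and the difference in log2 ratio, males minus females, was -2.64. Satb1 stood at 32.1, 29.0, 32.8, 37.3 and 34.8 percent in XXF mice and 33.8, 30.5, 30.9 and 27.6 percent in XYF mice. It was at 83.6, 67.2, 61.0, 75.0 and 104.0 percent in XXM mice and 54.0, 54.3, 51.0, 51.4 and 66.1 percent in XYM mice. Every male was above every female for Satb1 relative to Cd3e, as for 23.7% of all genes, with a log2 ratio higher by 1.02 in males. Satb1 itself differed by -0.13, and since Cd3e fell, the median gene rose by 1.17 relative to it and 68.8% of genes rose by as much as Satb1 or more. For the other 5 genes females and males overlapped, with differences of 0.41 for Il7r, -0.33 for Lef1, -0.19 for Igfbp4, -0.13 for Tcf7 and -0.12 for Actn1. Against the mean of the other 18 pan T cell genes the differences were -2.81 for Dapl1, 0.84 for Satb1, 0.24 for Il7r, -0.50 for Lef1, -0.37 for Igfbp4, -0.30 for Tcf7 and -0.30 for Actn1. All of these are descriptions of the contrast that chose Dapl1.

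**Figure D4:**
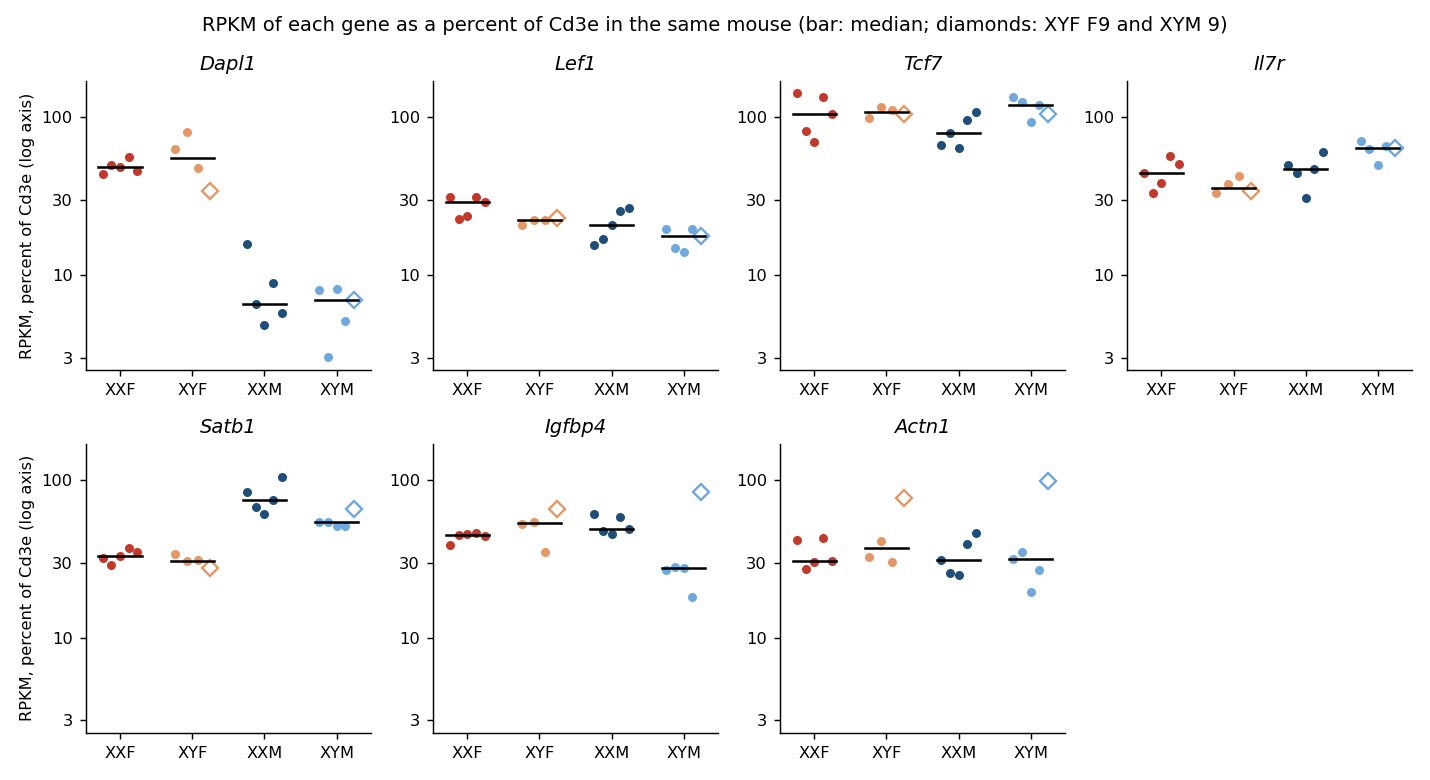
RPKM of each gene as a percent of that of Cd3e in the same mouse, on a log axis, by group, with the group median; open diamonds are XYF F9 and XYM 9. Dapl1 is lower in males, Satb1 is higher, as the median gene is relative to the falling Cd3e, and Igfbp4 and Actn1 are high in XYM 9 at 84.1 and 98.8 percent.

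Sex chromosomes were compared on these ratios by exact two-sided permutation tests within females (126 arrangements) and within males (252 arrangements), 14 tests in all. Every ratio carries the noise of Cd3e, so the 7 tests within a gonadal sex are not independent. Among males, Tcf7 relative to Cd3e was lower in XXM than in XYM mice (log2 ratio difference -0.49, exact p = 0.0397, 5 of 5 XXM mice below the XYM mean), as was Il7r (-0.44, exact p = 0.0238, 5 of 5), and Satb1 was higher (0.47, exact p = 0.0159, 5 of 5). Cd3e itself differed by -0.30 (SE 0.21, adjusted p = 0.349) between these mice, and by -0.47 (adjusted p = 0.0648), not called, without XYF F9 and XYM 9, beside 0.17 and 0.063 for Satb1. The median gene was thus 0.30 higher in XXM mice relative to Cd3e, 28.4% of all genes were higher by as much as Satb1 or more, and 16.1% were higher and 0.684% lower at an exact p under 0.05. After adjustment over the 7 tests in males the p of Tcf7, Il7r and Satb1 became 0.0926, 0.0833 and 0.0833, all 3 under the 0.1 used for genes and none under 0.05. The p were not adjusted over all 14 tests, which would give larger values. The exact p was under 0.05 for 3 of 7 genes in males, beside 16.8% of all genes, and for 0 of 7 in females, beside 31.0%, nearly all of these lower (30.8%). The unadjusted p passed 0.05 for Tcf7 when XXM 2, 5 or 6 or XYM 12, 13 or 16 was left out (differences from -0.48 to -0.40), and for Il7r when XXM 5, 6 or 7 or XYM 12, 13, 16 or 9 was left out (from -0.45 to -0.30). Without XYM 9 the ratios of Tcf7, Il7r and Satb1 differed by -0.52 (exact p = 0.0476), -0.43 (exact p = 0.0556) and 0.54 (exact p = 0.0159). Igfbp4 relative to Cd3e stood at 60.7, 47.5, 45.7, 58.2 and 48.9 percent in XXM mice and at 27.1, 28.3, 27.9, 18.2 and 84.1 percent in XYM mice. XYM 9 was above all XXM mice and the other 4 XYM mice were below all of them, so the difference of 0.68 (exact p = 0.111) was made smaller by that library and was 1.02 (exact p = 0.00794, the smallest that 5 against 4 mice allow) without it. Actn1 relative to Cd3e turned from -0.12 (exact p = 0.825) to 0.24 (exact p = 0.373) without XYM 9. In females, where Cd3e was 0.48 higher in XXF mice (adjusted p = 0.257; 0.26 without the pair) and the median gene 0.41 lower relative to it, the lowest exact p was that of Lef1 (0.29, exact p = 0.0556). Lef1 came under 0.05 without XXF F2 (0.36, exact p = 0.0286) or XYF F9 (0.32, exact p = 0.0357), as did Igfbp4 without XYF F8, from -0.21 (exact p = 0.286) to -0.38 (exact p = 0.0179), while without XYF F9 Igfbp4 was at -0.08 (exact p = 0.607). The Dapl1 ratio differed by -0.15 (exact p = 0.548) in females, by -0.36 (exact p = 0.0714) without XYF F9 and by 0.038 (exact p = 0.857) without XYF F7, and by 0.34 (exact p = 0.373) in males, where it was 0.12 without XXM 2.

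Correlations with Cd3e across mice were computed within the 9 females and within the 10 males, 14 relations with adjustment over all of them. Among females 6 of 7 genes had an adjusted permutation p under 0.1, and among males 3 of 7 (Lef1, Tcf7 and Il7r). A correlation with Cd3e at least as high as the weakest of these was found for 18.5% of all genes tested in females (r 0.696) and 4.53% in males (r 0.664), or 28.8% and 9.0% in either direction. Satb1 tracked Cd3e most closely in females (Pearson r 0.965, exact p = 0.000824, adjusted 0.0115, Spearman rho 0.867, exact p = 0.00451), and at r 0.894 without XYF F9 and XXF F2, the 2 mice farthest from the median of Cd3e. Dapl1 in females had r 0.861 (exact p = 0.0175, adjusted 0.0408) and rho 0.667 (exact p = 0.0589), but r 0.324 without those 2 mice, so its relation rests on them. The same holds for Tcf7 in females, with r 0.696 (exact p = 0.0576, adjusted 0.0896), rho 0.433 (exact p = 0.25) and r 0.064 without them. In males Tcf7 had r 0.748 (permutation p = 0.0175, adjusted 0.0408) and rho 0.648 (permutation p = 0.0487), and r 0.747 without XYM 9 and XXM 8. Dapl1 in males had r 0.31 (permutation p = 0.38, adjusted 0.409) and rho 0.394 (permutation p = 0.262), and r -0.0631 without those 2 mice. Actn1 in females had r 0.0254 (exact p = 0.946, adjusted 0.946) and rho 0.0833 (exact p = 0.843), but r 0.439 without XYF F9 and XXF F2. Igfbp4 in males had r -0.542 (permutation p = 0.105, adjusted 0.147), and -0.596 without XYM 9 and XXM 8, opposite in sign to its r 0.764 in females. Since the mice of a gonadal sex come from 2 groups and from libraries whose index follows the group, these relations hold for the mixture and were not computed within a group of 4 or 5.

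Other T cell genes place the 7 genes in context. Of 19 pan T cell genes, limma called 17 lower in males and 0 higher (median log2 difference -1.09), beside 5.36% of all genes lower and 1.96% higher and a median of 0.02. Thy1 (-1.21, SE 0.13, adjusted p = 9.01e-06) and Cd3g (-1.44, SE 0.19, adjusted p = 8.67e-05) were among them, and the exceptions were Cd2 (0.05, adjusted p = 0.805) and Trgc1 (0.14, adjusted p = 0.534). Summed pan T cell RPKM, with Cd2 the most abundant and none at 0, was 2098, 3104, 2847, 2222 and 2750 in XXF mice and 2179, 2755, 2096 and 1091 in XYF mice. It was 1215, 1304, 1273, 973.8 and 927.2 in XXM mice and 1166, 1073, 1516, 1296 and 724.7 in XYM mice, so that of the females only XYF F9 fell in the male range. The coreceptor genes Cd8a (-1.35, SE 0.14, adjusted p = 7.62e-06) and Cd8b1 (-1.70, SE 0.19, adjusted p = 1.07e-05) fell in males, while Cd4 (-0.54) was not called. All 3 coreceptor genes were lower in XXM than in XYM mice, as were Tcf7 and Il7r: Cd4 by -0.69 (adjusted p = 0.0842), Cd8a by -0.77 (adjusted p = 0.0621) and Cd8b1 by -0.83 (adjusted p = 0.0863). Each of these calls was lost without XXM 2, 5 or 6 or XYM 12, 13 or 16, that of Cd4 also without XXF F5, and that of Cd8b1 also without XXF F4, XXF F5 or XXM 7. Over all mice left out the differences ran from -0.93 to -0.59 for Cd4, from -0.90 to -0.69 for Cd8a and from -0.97 to -0.67 for Cd8b1.

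The 16 other naive T cell genes did not move as one. Limma called 5 of 16 lower in males (Nsg2, Rflnb, Txk, Themis and Cd27, from -1.04 to -0.66) and 0 higher, with a median of -0.15. The shares over all genes were 5.36% lower and 1.96% higher. The call of Rflnb was lost without XYF F9 (-0.58). Ccr7, which encodes a chemokine receptor shared with B cells, differed by -0.22 (adjusted p = 0.309). Within females S1pr1, the receptor for exit from lymphoid organs, was higher in XXF than in XYF mice (0.77, SE 0.18, adjusted p = 0.0524, and 0.58, under the size threshold, without XYF F9), the same direction as Lef1. The call of S1pr1 was also lost without XXF F1, XXF F5 or XYF F6. Within males Themis was lower in XXM mice (-1.04, SE 0.26, adjusted p = 0.0602), the direction of Tcf7 and Il7r, a call lost without XXM 2, 5 or 6 or XYM 12, 13 or 16.

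Lists of partners and relatives of the 7 genes are short, so 0 or 1 call in each is near the shares over all genes, 1.38% in females, 2.96% in males and, between males and females, 5.36% lower and 1.96% higher. At an unadjusted p under 0.05 these shares are 18.7% in females, 27.1% in males and 41.7% between males and females. Limma called 0 of 10 tested genes of the TCF and LEF family, partners and Wnt targets between males and females, with 6 at an unadjusted p under 0.05 and 0 by limma-voom, and 0 of 10 between XX and XY mice within females (6 and 0 by the same counts) and within males (3 and 0). For the interleukin 7 pathway it called 0 of 12 tested genes in the same comparisons, with 3 at an unadjusted p under 0.05 between males and females, 6 in females and 3 in males, and 0 by limma-voom. Of 5 tested genes of the insulin-like growth factor axis, only Igf2r was called, lower in XXM than in XYM mice (-0.85, SE 0.25, adjusted p = 0.081, lost without XXF F5, XXM 2, 5 or 6 or XYM 12, 13 or 16), and Igfbp1 had no read in any mouse. Of the 3 paralogues that passed the filter (Dap, Actn2 and Actn4), only Actn2 was called, lower in males (-0.94, SE 0.13, adjusted p = 8.66e-05) at a low level. Of 18 activated and effector T cell genes, Gzmk fell in males (-1.30, SE 0.19, adjusted p = 0.000191) and 0 rose.

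**Figure D5:**
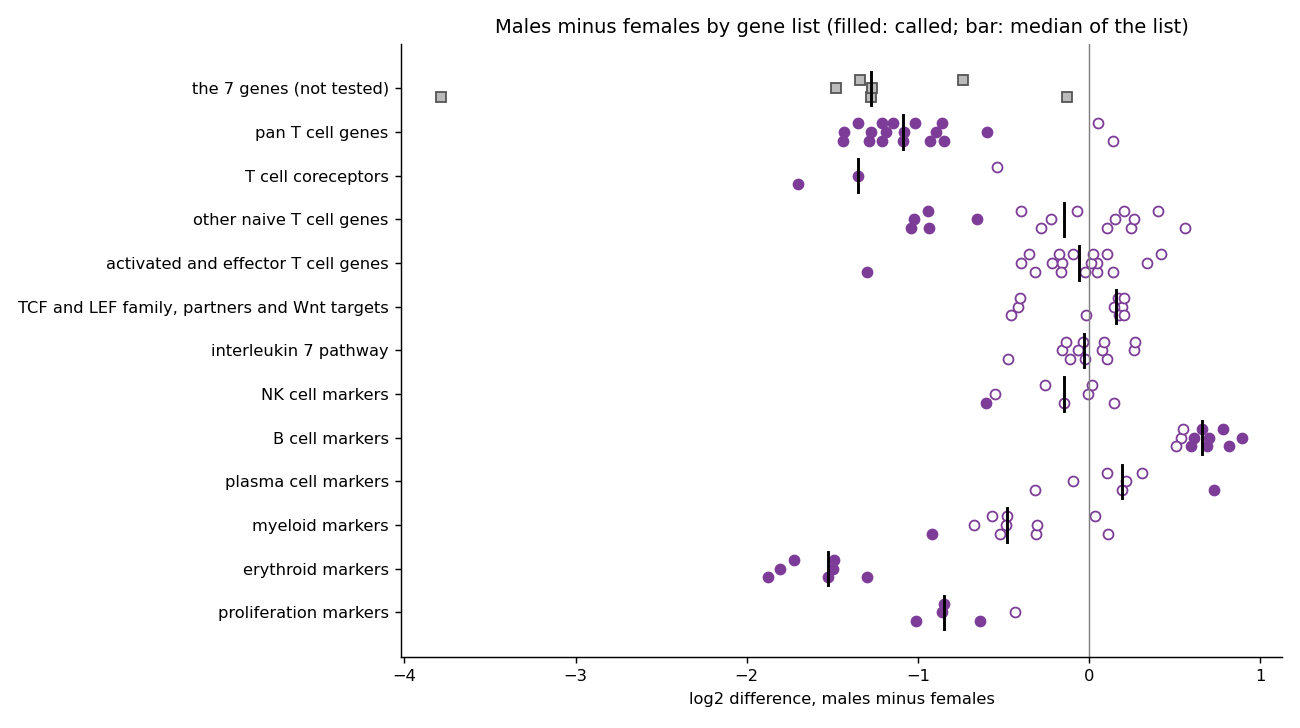
Log2 difference, males minus females, of each gene in the lists, with the median of each list as a bar; filled circles are called and grey squares are the 7 genes, which were not tested. Pan T cell genes center on -1.09, other naive T cell genes on -0.15, and Dapl1 lies apart at -3.78.

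Markers of other cells differed between females and males as well, and their part in the values of the 7 genes was not tested. Of 11 B cell markers, with Cd74 the most abundant and none at 0, limma called 8 higher in males, 5 when XYF F9 was left out and 6 without XYF F9 and XYM 9. Over all genes 1.96% were called higher in males and 5.36% lower. Their summed RPKM was 8265, 8714, 8037, 7907 and 8131 in XXF mice, 4861, 7867, 7759 and 4251 in XYF mice, 12540, 12500, 12090, 11550 and 10460 in XXM mice and 9430, 8622, 11060, 9919 and 6337 in XYM mice. All XXM mice were above all females, and XYF F9 and XYM 9 were the lowest of their groups. Between females limma called Blk (0.76), Cr2 (0.79) and Cd1d1 higher with XX. Cd1d1 is listed among the immature thymocyte markers, of which only 3 of 6 passed the filter, and was the only 1 called. Tnfrsf17 of plasma cells (-0.92) and 1 platelet marker were called lower. Of these only Cr2 was called without XYF F9 and XYM 9. Pax5 (0.90) and 1 dendritic cell marker were called higher in XXM than in XYM mice. The call of Pax5 was lost without XXM 2, 5 or 6 or XYM 12, 13 or 16. All 7 measured erythroid markers of the 8 listed, with Hbb-bs the most abundant and none at 0, were called lower in males (median -1.52). Their sums were 11440, 17530, 24840, 20450 and 14490 RPKM in XXF mice, 43720, 17860, 14170 and 32780 in XYF mice, 10300, 8306, 6308, 6414 and 12700 in XXM mice and 2053, 6144, 4467, 1363 and 13210 in XYM mice. The lowest XXM sum stood above every XYM mouse but XYM 9. Limma called 1 erythroid marker (Hba-a1) higher in XXM than in XYM mice, and 5 without XYF F9 and XYM 9. The call of Hba-a1 with all mice was lost when any 1 of 10 mice was left out. Erythroid markers thus also moved with the comparison in which Tcf7 and Il7r were called.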

How the data were processed

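Reads of 19 mouse spleen libraries, 1 per mouse, were aligned to mm10 with Subread and counted on genes with featureCounts by the authors, per the submitters' processing notes, without versions. The authors deposited log2 RPKM values for 27179 genes, which equal log2(RPKM + 1) with 0.0001 added. The labels name a NEBNext Ultra kit, the study's methods a stranded KAPA kit, and settings for strand and for reads with several matches are not given. Whole reads, to within 0.05 of a read, were recovered from the steps between values for all 21317 genes with a read. They were taken at library sizes of 11263753 to 19962022 reads, as a measure of depth.

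The 14186 genes that reached an RPKM of 0.5 in 4 or more mice were fitted by limma (3.58.1, under R 4.3.3), with 1 mean per group, 4 in all, and a variance trend along expression. Genes were called at a Benjamini-Hochberg adjusted p under 0.1 and a difference of over 1.5 times. Between males and females the 7 genes were described only. Ratios to Cd3e were compared by exact permutation tests, correlations with Cd3e by exact or 100000-resample permutation tests. Code was tested on simulated data. Other steps ran in scipy 1.17.1, pandas 2.3.3, matplotlib 3.10.9 and numpy 2.4.6 (Python 3.11.15), and promoters came from RefSeq GRCm38.p6.

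The 7 genes and all 18 lists were chosen with earlier results of these data known. Genes named are the 7 and Cd3e, list genes that were called, were most abundant or are set beside one of the 7, the 10 genes most like Dapl1 by each measure, and its 10 tested neighbours on each side. The lists are other naive T cell genes, pan T cell genes, T cell coreceptors, activated and effector T cell genes, the TCF and LEF family with partners and Wnt targets, the interleukin 7 pathway, the insulin-like growth factor axis, paralogues, and markers of B, plasma, myeloid, dendritic, NK, erythroid, platelet, immature thymocyte, stromal and proliferating cells.

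The alternatives tried were a pseudocount of 0.5 or 0.1, dropping the filter or raising it to an RPKM of 1, quantile normalization, median ratio rescaling, fits on only the groups compared, array weights, a constant variance, limma-voom on recovered reads, an adjusted p threshold of 0.05, no size threshold, each mouse left out in turn, the mean of the other pan T cell genes in place of Cd3e, and leaving out XYF F9 and XYM 9 together, which was chosen after seeing the data. Leaving out mice for the correlations between genes was also chosen after seeing the data. A limma fit of log2 ratios to Cd3e across all genes was tried and dropped, because every gene then shares the noise of Cd3e. The exact tests of these ratios that were kept share that noise as well.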

Additional observations from a re-analysis of the deposited data

Results flagged for a closer look

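In 100 groups of values, 6 held a mouse whose gap to the nearest other mouse took up more of the range of the group than Dixon's limit allows, and chance gives about 1 in 20 groups. Of these 6, 4 were values of XYM 9. Its ratio of Satb1 to Cd3e, on the log2 scale, was -0.581 beside -0.955 to -0.8642 in the other XYM mice, and that of Igfbp4 was -0.2438 beside -2.387 to -1.768. Its summed myeloid markers reached 46550 RPKM beside 3196 to 8346 RPKM, and its proliferation markers 268.1 RPKM beside 53.49 to 102.7 RPKM. XYF F9 stood apart in Satb1, with a log2 level of 4.432 beside 5.386 to 5.552 in the other XYF mice, and XXM 2 in Tcf7, with 5.22 beside 5.599 to 5.66.

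By the interaction test in limma, the XX minus XY value of Cd28 differed between females and males (1.349 on the log2 scale, SE 0.24, adjusted p = 0.0546). The XX minus XY value was 0.56 (adjusted p = 0.133) in females and -0.79 (adjusted p = 0.0341) in males. The call was lost when XXF F1, F2, F4 or F5, XYF F6 or F9, XXM 2 or 6, or XYM 12, 13 or 16 was left out, with values from 1.21 to 1.5 and adjusted p from 0.00677 to 0.15 over all mice left out.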

How the results depend on the processing

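Of 2102 values recomputed under the alternatives other than leaving out mice, 1893 kept their direction and their side of the threshold, or for a count stayed within 1.5 times, 96 were no longer past it, 8 newly passed it, 5 changed sign and 100 counts moved further. With each mouse left out in turn these numbers were 2970, 287, 20, 25 and 270. With XYF F9 and XYM 9 left out together, which was chosen after seeing the data, they were 146, 15, 6, 7 and 21. The males minus females values of the 7 genes kept their sign under every alternative, with Dapl1 from -4.09 (limma-voom) to -3.74 (quantile normalization). For the changes below the cause was not tested, except that stricter or absent thresholds change calls by construction and that the compared groups alone leave fewer mice.

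Lef1, XXF minus XYF, was no longer called with a pseudocount of 0.1 (0.79, adjusted p = 0.106), without a filter (0.77, 0.117), with median ratio rescaling (0.69, 0.106), with the compared groups alone (0.77, 0.133) and at a threshold of 0.05 (0.77, 0.0913). Tcf7, XXM minus XYM, was no longer called without a filter (-0.78, 0.103), with the compared groups alone (-0.78, 0.106) and at 0.05 (-0.78, 0.0798), and Il7r with the compared groups alone (-0.74, 0.101) and at 0.05 (-0.74, 0.0732). Lef1, XXM minus XYM, changed sign with quantile normalization (0.016) and array weights (0.038). Array weights also called Il7r in females (0.70, 0.0702) and the interactions of Lef1 (0.69, 0.0708), Tcf7 (1.25, 0.0225), Il7r (1.53, 0.00841) and Actn1 (0.60, 0.0425), and turned that of Dapl1 (-0.016). Median ratio rescaling called the interaction of Il7r (1.4, 0.084).

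Leaving out XYF F9 and XYM 9 turned Dapl1 in females (-0.11), in males (-0.057), over both (-0.082) and in the interaction (-0.049), Actn1 over both (0.0015) and Cd3e over both (-0.11). It ended the call of Lef1 in females (0.57, 0.163) and called the interactions of Lef1 (0.75, 0.0937), Tcf7 (1.17, 0.0335) and Il7r (1.38, 0.00724). Adjusted p over the alternatives other than single mice ranged from 0.0721 to 0.163 for Lef1 in females, 0.0702 to 0.232 for Il7r in females, 0.00183 to 0.106 for Tcf7 and 0.00134 to 0.101 for Il7r in males. For the interactions they ranged from 0.0708 to 0.211 for Lef1, 0.0225 to 0.176 for Tcf7, 0.00724 to 0.128 for Il7r and 0.0425 to 0.265 for Actn1.

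The settings that moved the counts of all genes called differed between the comparisons. XXF minus XYF (196) gave 88 with the compared groups alone, 103 at 0.05, 345 without a size threshold and 127 without XYF F9 and XYM 9. XXM minus XYM (420) gave 211 without a filter, 121 with the compared groups alone, 1027 with array weights, 85 at 0.05, 1115 without a size threshold and 876 without the pair of mice. XX minus XY (244) gave 413 with a pseudocount of 0.1, 391 with limma-voom and 983 without a size threshold. The interaction (12) gave 6 with a pseudocount of 0.1, 6 without a filter, 1910 with array weights, 4 with limma-voom, 0 at 0.05 and 782 without the pair. Males minus females (1039 in both directions) gave 1700 with a pseudocount of 0.1, 1714 with limma-voom and 5468 without a size threshold. Of the 7 genes, XXF minus XYF called 0 with a pseudocount of 0.1, without a filter, with median ratio rescaling, with the compared groups alone, at 0.05 and without the pair, and 2 with array weights. XXM minus XYM called 1 without a filter and 0 with the compared groups alone and at 0.05. The interaction called 1 with median ratio rescaling, 4 with array weights and 3 without the pair.

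With the other pan T cell genes in place of Cd3e, Lef1 in females was at 0.33 (exact p = 0.0476). Without XYF F9 and XYM 9 the ratio to Cd3e was 0.32 for Lef1 in females (exact p = 0.0357), and in males -0.43 for Il7r (exact p = 0.0556), 1.02 for Igfbp4 (exact p = 0.00794) and 0.24 for Actn1 (exact p = 0.373), the last a change of sign. Without the 2 mice farthest from the median of Cd3e, correlations in females were 0.324 for Dapl1, 0.707 for Lef1, 0.064 for Tcf7, 0.64 for Il7r, 0.894 for Satb1 and 0.695 for Igfbp4. In males they were 0.602 for Lef1, 0.747 for Tcf7 and 0.712 for Il7r, and changed sign for Dapl1 (-0.0631) and Actn1 (0.331).

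With each mouse left out in turn, XXF minus XYF ran from -0.11 (without XYF F9) to 0.63 (without XYF F7) for Dapl1, and between the same 2 mice from 0.57 to 0.88 for Lef1, 0.48 to 0.85 for Il7r and 0.31 to 0.69 for Satb1. XXM minus XYM ran from -0.17 (without XXM 2) to 0.20 (without XYM 15) for Dapl1. Between XYM 9 and XYM 16 left out it ran from -0.18 to 0.11 for Lef1, -0.99 to -0.67 for Tcf7 and -0.90 to -0.63 for Il7r. XX minus XY ran, without XYF F9 and without XYF F7, from -0.032 to 0.34 for Dapl1, -0.13 to 0.058 for Il7r and -0.019 to 0.15 for Cd3e. The interaction ran from -0.15 (without XYF F9) to 0.59 (without XYF F7) for Dapl1. Between XYF F9 and XYM 9 left out it ran from 0.60 to 0.95 for Lef1, 0.96 to 1.4 for Tcf7 and 1.22 to 1.63 for Il7r. It ran from -0.28 (without XYM 9) to 0.030 (without XYF F7) for Igfbp4 and from 0.41 (without XYM 9) to 0.72 (without XYM 15) for Actn1. Genes called ran from 56 (without XYF F9) to 850 (without XYF F7) for XXF minus XYF, 51 (without XXM 2) to 1213 (without XYM 15) for XXM minus XYM, 148 (without XYF F9) to 518 (without XYF F7) for XX minus XY and 0 (without XXF F1) to 1694 (without XYM 9) for the interaction. Of the 7 genes they ran from 0 to 3 in XXF minus XYF, 0 to 2 in XXM minus XYM and 0 to 3 in the interaction.

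Ratios to Cd3e in females ran from -0.36 (without XYF F9) to 0.038 (without XYF F7) for Dapl1, 0.24 (without XXF F1) to 0.36 (without XXF F2) for Lef1, -0.18 (without XXF F1) to 0.072 (without XXF F3) for Tcf7 and -0.38 (without XYF F8) to -0.084 (without XYF F9) for Igfbp4. In males they ran, without XXM 8 and without XXM 6, from -0.58 to -0.40 for Tcf7 and -0.54 to -0.30 for Il7r. They ran from 0.49 (without XYM 16) to 1.02 (without XYM 9) for Igfbp4 and -0.33 (without XYM 15) to 0.24 (without XYM 9) for Actn1. Depth limits the male values of Dapl1, which rest on 24 to 79 reads. No paired analysis was possible because nothing in the labels states that mice are matched. Some mouse numbers in the titles recur between groups, as 9 does in XYF F9 and XYM 9, and were not read as pairs.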

Other observations

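Genes of natural killer (NK) cells were higher with XX in females, and some of them in males. Of 7 NK cell markers, limma called 5 higher with XX in females, 3 in males and 5 over both, beside 1.38%, 2.96% and 1.72% of all genes called in either direction. Their summed RPKM, with Gzma the most abundant and none at 0, was 599.8, 733.1, 679.9, 773.3 and 759.8 in XXF mice and 332.4, 471.9, 341.6 and 178.3 in XYF mice. It was 581.4, 478.3, 499.8, 507.0 and 449.2 in XXM mice and 316.5, 305.2, 459.4, 246.1 and 150.4 in XYM mice. The XX minus XY difference was 1.17 for Klre1 (SE 0.15, adjusted p = 0.000374) and 1.57 for Gzma (SE 0.26, adjusted p = 0.00282), and Klrg1, listed among effector T cell genes, differed by 1.02 (SE 0.14, adjusted p = 0.000523). Without XYF F9 and XYM 9 these were 0.99, 1.21 and 0.91, all called, but the count over both sexes was 4, with Prf1 lost at 0.47 (0.68 with all mice, and 0.55 without XYM 9 alone). The 3 calls in males were each lost with 1 mouse left out. Those of Klrb1c and Gzma were lost without XXM 2, 5 or 6 or XYM 12, 13 or 16 (values from 0.87 to 0.998 and from 1.33 to 1.5), and that of Klre1 without XXM 2 or XYM 13 or 16 (from 0.87 to 0.93). In females the call of Prf1 was lost without XXF F1, F4 or F5 or XYF F6 or F9 (from 0.84 to 1.01) and that of Gzma without XXF F5 or XYF F6 or F9 (from 1.41 to 1.74).

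The dendritic cell genes Flt3 (1.03, SE 0.10, adjusted p = 2.07e-06) and Siglech (1.25, SE 0.13, adjusted p = 6.09e-06) were higher in males without overlap, 2 of 6 markers of these cells. Between males and females limma called 1 of 7 plasma cell markers higher (Irf4, 0.73), and lower 1 of 10 myeloid markers (Cd14, -0.92), 4 of 5 proliferation markers, 1 of 4 tested stroma, epithelium and pancreas markers (Cela1, -0.67) and 1 of 7 NK cell markers (Klrd1, -0.60). Over all genes 1.96% were called higher in males and 5.36% lower, so 1 call in a list this short is near these shares. How many of all genes separate males above females, as Flt3 and Siglech do, was not counted. It called 0 of 5 platelet markers, with 2 at an unadjusted p under 0.05 (beside 41.7% of all genes) and 0 by limma-voom, and 0 of 3 tested immature thymocyte markers, with 0 and 0. The call of Klrd1 was lost without XXF F2, XYF F6, F7 or F8, XXM 8, or XYM 16 or 9, with values from -0.77 to -0.51 over all mice left out. That of Mki67 (-0.85) was lost without XXF F1, F2, F3 or F4, XYF F6, F8 or F9, XXM 2, 5 or 7, or XYM 12, 13, 15 or 16 (-1.10 to -0.65 over all mice), and that of Ccnb1 (-0.64) without XXF F3, XYF F6 or F9, XXM 5 or 7, or XYM 12, 15 or 16 (-0.83 to -0.53). Krt14 and Ins2 had no read in any mouse.

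The values rest on 1 library for each mouse, 4 or 5 mice per group, 1 time point and no unimmunized mice. No cells were sorted. The genes were chosen with results of these mice known, and the males minus females differences of the 7 genes carry no test. Library order runs along the groups. No part of the Sry transgene, the gonads or hormones was varied apart from the 4 genotypes.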
